A study of Mus musculus with 4 samples.

Results

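Macrophages and their relatives engulf particles and dying cells, and the 41 genes described here encode the proteins they use for it: the NADPH oxidase, Fc receptors, Toll-like receptors, complement proteins, scavenger and clearance receptors, and lysosomal enzymes. The genes were chosen by name, with earlier results of these data known. Each was read from 1 Affymetrix probe set, the one with the highest mean over the arrays among probe sets named for that gene alone. All 41 were measured, of 19938 genes in all, and no gene was left out for a dim signal. Values are log2 signal after RMA, so a difference of 1 is 2-fold, and a level is compared between arrays and not between genes.

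All cells came from the bone marrow of C57BL/6 mice without a germline change named in the labels. The LMPP array (1 array) held pooled lymphoid-primed multipotent progenitors, which the label calls wild-type. They were sorted as lineage-negative, Sca+, kit+ and Flt3high and kept for 48 hours in a medium with IL-3, IL-6, SCF and Flt3-ligand. Tcf1 cells (2 arrays, labelled as biological replicates) were LMPPs given the Tcf1-VEX retrovirus, grown on OP9 stroma without added Notch ligand and sorted on day 10. Control cells (1 array) were LMPPs given the empty VEX retrovirus, grown on OP9 stroma expressing DL4, a Notch ligand, and sorted on the same day. Both cultures received IL7 and Flt3L, and both were gated as DAPI-, CD45.2+, Mac1-, Gr1-, Thy1+ and CD25+. Vector and stroma thus differ together between Tcf1 and control cells. LMPPs differ from both in time, medium, stroma and gate, and these effects cannot be told apart.

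In a macrophage the membrane-bound oxidase makes superoxide into the phagosome, Fc receptors and complement receptors bind coated particles, Toll-like receptors sense microbial molecules, and cathepsins in the lysosome break down what was taken up. Early T cell progenitors can still give rise to myeloid cells, and they lose this capacity as Notch signalling commits them to the T lineage.

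Of the sort markers, Thy1 read 8.13 in LMPPs, 12.38 and 12.53 in Tcf1 cells and 12.98 in control cells, and Itgam, the gene of the excluded marker Mac1, read 8.25, 7.44 and 7.70, and 7.03. Itgam was thus highest in LMPPs. Kit, by which the LMPPs were sorted, read lowest in them, at 9.68 against 11.17 and 11.27 in Tcf1 cells and 11.39 in control cells, and rose by 1.54 (adjusted p = 0.00472, limma). Flt3, the other such marker measured, read 11.91 in LMPPs, 10.97 and 11.03 in Tcf1 cells and 6.75 in control cells. The 4 arrays had gene medians between 7.47 and 7.59. Tcf1 replicate 2 read above replicate 1 for 38 of the 41 phagocyte genes (92.7%), against 67.9% of all genes, with a median excess of 0.28 against 0.08. Only Fcgr1, Fcgr3 and Cd14 read higher in replicate 1. Of the 41 genes, 7 (Fcgr1, Tlr4, Cd14, C1qa, Msr1, Cd36 and Mertk) read below the median gene on all 4 arrays.

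Most of the 41 genes were higher in Tcf1 cells than in control cells, and some were also higher than in LMPPs. Against control cells, 24 of 41 genes were higher (58.5%) and 0 lower by limma's test with Benjamini-Hochberg adjustment over all genes, beside 1.9% and 2.49% of all genes, and at an unadjusted p under 0.05 the counts were 33 and 0, beside 5.72% and 8.37% of all genes. The median difference of the 41 was 1.39, against 0.02 over all genes. Against LMPPs, 13 genes rose (31.7%) and 2 fell (4.88%), beside 1.75% and 1.31% of all genes, and the median was 0.65 against 0.01 over all genes. At an unadjusted p under 0.05, 26 of the 41 were higher and 4 lower than in LMPPs, beside 1062 and 1838 of the 19938 genes. Adgre1, Lyz2, Cybb and Hp had the largest differences from control cells, and Mpeg1 and Ncf1 were the 2 that fell from LMPPs. In this bulk RNA, more cells with a transcript and more transcript per cell cannot be told apart.

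Both tests use the same Tcf1 arrays and take their spread from that pair alone, with the single arrays of the other groups taken to vary likewise. With all 35399 probe sets tested together, the count of phagocyte genes past the test was 0 in both comparisons, with 27 (LMPPs) and 33 (control cells) at an unadjusted p under 0.05. The share of all probe sets at that unadjusted level was not counted. At least 2-fold above LMPPs were 14 genes (beside 1.79% of all genes) and 2 were 2-fold below (1.11%). Without Tcf1 replicate 2 the 14 became 9, and without replicate 1 they became 16. At least 2-fold above control cells were 22 genes (1.78% of all genes), or 21 and 26 when either replicate was left out. The counts with a replicate left out were not made over all genes.

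**Figure D1:**
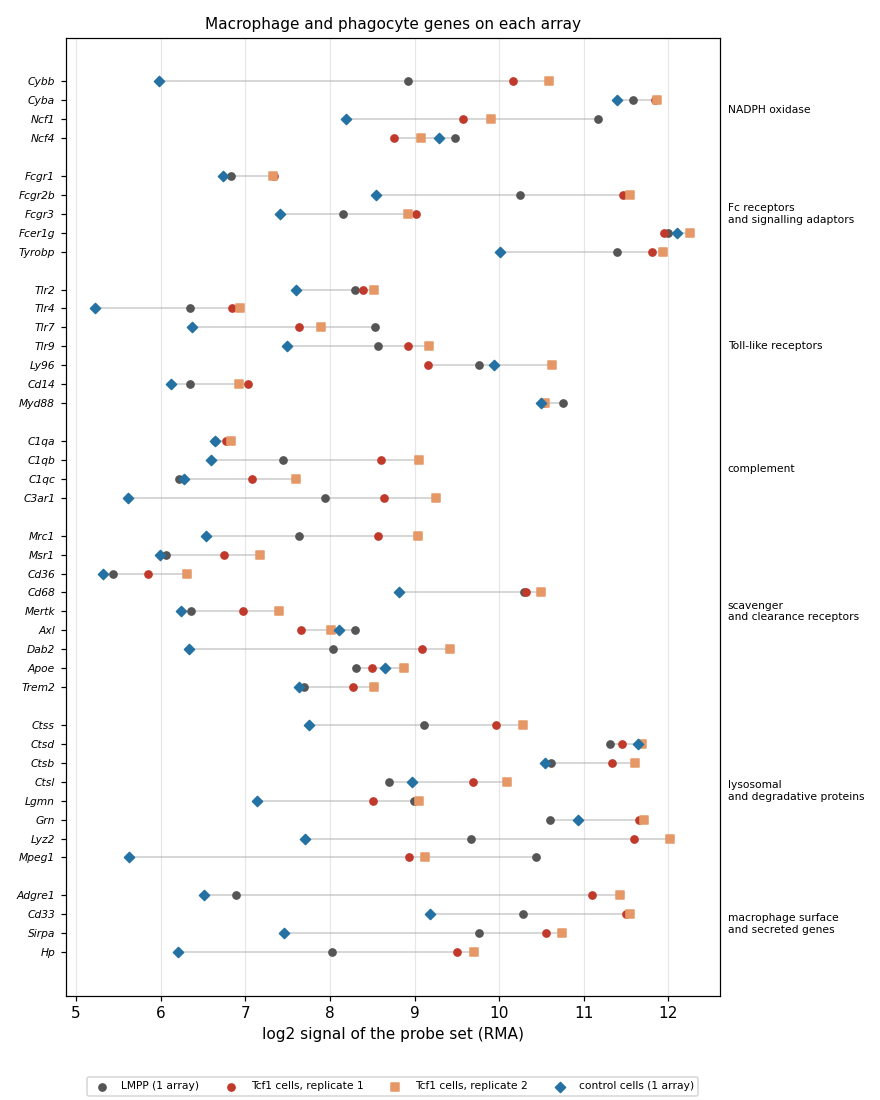
Log2 signal (horizontal axis) of each of the 41 phagocyte genes on each of the 4 arrays, grouped by role, with a grey line from the lowest to the highest array. The control array lies lowest for most genes, and the Tcf1 arrays of Adgre1 (11.10 and 11.43) stand far from both other arrays (6.89 and 6.51).

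Markers of other cells were read beside these genes. Of 14 neutrophil markers, 1 rose and 6 fell against LMPPs and 4 were higher than in control cells. Mmp8 rose, reading 7.58 in LMPPs, 10.15 and 10.09 in Tcf1 cells and 5.13 in control cells. It was 4.99 above control cells, the largest such excess of all 19938 genes. Prtn3 (2.825), Mpo (2.12) and Elane (1.66) also passed above control cells. Ngp (-3.73), Elane (-2.53) and Ctsg (-1.20) fell the most from LMPPs. The mean log2 level of the 14 was 8.75 in LMPPs, 7.91 and 7.99 in Tcf1 cells and 6.90 in control cells. Of 13 dendritic cell and MHC class II markers, 0 passed against LMPPs by limma (0 higher, 2 lower at unadjusted p under 0.05). Higher than in control cells were 4, all of MHC class II or its invariant chain Cd74. For these 4 the Tcf1 replicates lay on either side of the LMPP array and above the control array. Their replicate gaps ran from 0.855 (H2-Eb1) to 1.373 (H2-Aa). The mean of the 13 was 8.35 in LMPPs, 7.97 and 8.41 in Tcf1 cells and 6.86 in control cells. Of 11 stromal markers, 0 were higher in either comparison by limma (1 against LMPPs and 0 against control cells at an unadjusted p under 0.05), Pdgfrb was 1.63 lower than in control cells and passed, and their mean lay between 6.75 and 6.93 on all arrays. Of 13 T lineage markers, 9 rose and 0 fell against LMPPs, and 0 were higher and 7 lower than in control cells by limma. At an unadjusted p under 0.05, 1 was higher and 11 lower than in control cells. The mean of the 13 was 7.32 in LMPPs, 9.04 and 9.22 in Tcf1 cells and 10.64 in control cells. The list includes Thy1 and Il2ra, the gene of CD25, by which the cultured cells were sorted. Cd3g read 5.62 in LMPPs, 6.48 and 6.64 in Tcf1 cells and 13.00 in control cells. Of 8 progenitor markers, 1 rose and 4 fell against LMPPs and 4 were higher than in control cells, with a mean of 9.97 in LMPPs, 9.42 and 9.52 in Tcf1 cells and 7.91 in control cells. Of 6 B lineage markers, 0 were higher and 1 (Cd79b) lower in each comparison by limma (0 higher and 2 lower at an unadjusted p under 0.05 in each). Of 7 mast cell and basophil markers, Cpa3 rose and Mcpt8 fell against LMPPs, and Mcpt8 was lower than in control cells. The part of such cells in the phagocyte differences was not tested.

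Because many of these genes were higher in Tcf1 cells together, the 250 bases before their start sites were read from RefSeq promoters (GRCm38.p6), which held 29 of the 41. The letters GAGGAA, or TTCCTC on the other strand, are a form of the site bound by the Ets factor PU.1. They stood in the window of 14 of 29 genes (48.3%) and of 25.9% of 27025 genes. The letters ATCAAAG or CTTTGAT, a form of the site bound by Tcf1, stood in 0 of 29 and in 3.7% of all genes. Because no window of the 29 held the second motif, overlap of the motifs could not arise. With 29 genes and a share of 3.7%, a count of 0 says little about a lack of such sites. The second motif was chosen after the values were seen. Windows of C1qb, Mrc1 and Cd33 are shown, 5′ to 3′ on the strand of the gene, as examples picked from the genes that passed in both comparisons and hold a match, which also include Dab2 and Ctss. Capitals mark GAGGAA or TTCCTC.
C1qb: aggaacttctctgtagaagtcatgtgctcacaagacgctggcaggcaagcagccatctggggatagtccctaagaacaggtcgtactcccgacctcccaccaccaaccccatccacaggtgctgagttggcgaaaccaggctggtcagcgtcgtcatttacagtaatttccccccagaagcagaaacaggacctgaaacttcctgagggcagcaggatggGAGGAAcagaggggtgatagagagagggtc
Mrc1: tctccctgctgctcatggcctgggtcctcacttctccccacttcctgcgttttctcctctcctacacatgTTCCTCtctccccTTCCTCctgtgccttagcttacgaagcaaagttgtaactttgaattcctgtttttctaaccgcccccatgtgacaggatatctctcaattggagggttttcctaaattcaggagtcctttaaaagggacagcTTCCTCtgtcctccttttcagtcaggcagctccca
Cd33: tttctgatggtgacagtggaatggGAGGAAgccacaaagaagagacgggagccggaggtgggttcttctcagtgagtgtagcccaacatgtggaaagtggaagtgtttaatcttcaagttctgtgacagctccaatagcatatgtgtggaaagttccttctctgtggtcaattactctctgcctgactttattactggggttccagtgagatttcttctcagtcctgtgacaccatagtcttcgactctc
The windows lie at chr4:136886201-136886450 on the minus strand, chr2:14229164-14229413 on the plus strand and chr7:43533172-43533421 on the minus strand. Mrc1 has 3 matches. C1qb has 1, with its first base at position -30 counted from the start site, and Cd33 has 1, at position -226. Of the genes that passed in both comparisons, Cybb, Fcgr2b, Lyz2, Mpeg1 and Ncf1 have neither motif in this window. Adgre1, Sirpa and Hp, which also passed in both, are not among the 29 genes with a window. The matching genes Cd68, Fcgr3, Grn and Tlr9 passed in 1 comparison only. Apoe, Axl, C1qc, Fcgr1 and Trem2 also hold a match and passed in neither. A match describes letters, not binding.

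Of the NADPH oxidase subunits, Cybb and Ncf1 moved and Cyba and Ncf4 did not pass. Cybb encodes the catalytic membrane chain gp91phox. It read 8.92 in LMPPs, 10.16 and 10.59 in Tcf1 cells and 5.98 in control cells, so that both Tcf1 arrays lay above both others. It rose by 1.45 against LMPPs (SE 0.21, adjusted p = 0.0166, limma) and was 21.0-fold higher than in control cells, a log2 difference of 4.39 (SE 0.21, adjusted p = 0.000268, limma). Ncf1, the organizer p47phox that brings the cytosolic subunits to the membrane, was highest in LMPPs, at 11.16, with 9.57 and 9.90 in Tcf1 cells and 8.20 in control cells. Ncf1 therefore fell by 1.42 against LMPPs (adjusted p = 0.0124, limma) while being 1.54 above control cells (adjusted p = 0.00713, limma).

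Cyba, the p22phox partner that stabilises the catalytic chain, lay between 11.40 and 11.87 on all 4 arrays, and its difference from control cells was 0.46 (95% interval 0.08 to 0.84). Ncf4, the lipid-binding subunit p40phox, was lowest in Tcf1 cells, at 8.76 and 9.08 against 9.47 in LMPPs and 9.29 in control cells, and did not pass in either comparison. Of 5 other genes of the oxidase and its regulation, Rac2 among them, 0 passed in either comparison by limma (0 higher and 1 lower against LMPPs, and 1 higher against control cells, at an unadjusted p under 0.05).

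Of 5 Fc receptor and adaptor genes, 1 rose against LMPPs and 3 were higher than in control cells. Fcgr2b, the inhibitory receptor for IgG, read 10.25 in LMPPs, 11.46 and 11.55 in Tcf1 cells and 8.54 in control cells. It rose by 1.26 against LMPPs (adjusted p = 0.01, limma) and was 2.97 above control cells, or 7.81-fold (adjusted p = 0.000338, limma). Fcgr3, an activating receptor with a similar extracellular sequence, read 8.15 in LMPPs, 9.02 and 8.92 in Tcf1 cells and 7.40 in control cells. It was 1.56 above control cells and past the test, and its difference of 0.81 from LMPPs missed it (adjusted p = 0.0552, limma). Their probe sets were not checked for shared sequence.

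Of the adaptors that carry the activating signal, Tyrobp was higher than in control cells and Fcer1g did not pass. Tyrobp (DAP12), which pairs with Trem and other receptors, read 11.39 in LMPPs, 11.80 and 11.94 in Tcf1 cells and 10.01 in control cells, 1.86 above control cells (adjusted p = 0.00195, limma). Fcer1g, the common gamma chain of Fc receptors, read 12.00 in LMPPs, 11.94 and 12.25 in Tcf1 cells and 12.10 in control cells, and the arrays of the 3 groups overlapped. Its difference from control cells was 0.00 (95% interval -0.45 to 0.45). The high-affinity receptor Fcgr1 lay between 6.74 and 7.33 and did not pass in either comparison.

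Of 11 other measured Fc receptor and adaptor genes, 1 rose and 1 fell against LMPPs and 1 was higher than in control cells. Pirb, an inhibitory receptor of myeloid and B cells, rose by 1.49 and was 1.91 above control cells, and Trem1, an activating receptor that signals through Tyrobp, fell by 1.01.

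No Toll-like receptor gene of the 7 passed against LMPPs by limma (3 higher and 1 lower at an unadjusted p under 0.05), but 5 were higher than in control cells. Tlr4, the receptor for bacterial endotoxin, read 6.35 in LMPPs, 6.84 and 6.93 in Tcf1 cells and 5.23 in control cells, 1.66 above the latter (adjusted p = 0.00288, limma). Cd14, which hands endotoxin to that receptor, read 6.35, then 7.03 and 6.93, and 6.12, and was 0.85 above control cells. Tlr2, a sensor of bacterial lipoproteins, read 8.29 in LMPPs, 8.39 and 8.52 in Tcf1 cells and 7.60 in control cells, 0.85 above the control. All 3 thus read lowest in control cells, with LMPPs next and both Tcf1 arrays on top.

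The endosomal receptors Tlr9 and Tlr7 were both higher than in control cells. Tlr9, a sensor of unmethylated DNA, read 8.57 in LMPPs, 8.92 and 9.17 in Tcf1 cells and 7.49 in control cells, 1.55 above control cells (adjusted p = 0.00535, limma). Tlr7, a sensor of single-stranded RNA, was highest in LMPPs, at 8.53, with 7.63 and 7.89 in Tcf1 cells and 6.37 in control cells. It was 1.39 above control cells (adjusted p = 0.00842, limma), and its difference from LMPPs of -0.77 did not pass (adjusted p = 0.0886, limma).

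Ly96 (MD-2), the endotoxin-binding partner of Tlr4, had the widest gap between the Tcf1 replicates of all 41 genes, 9.16 against 10.62. Those values lay on either side of LMPPs (9.77) and control cells (9.94), so no direction could be given. Myd88, the adaptor below most Toll-like receptors, lay between 10.49 and 10.75 on all arrays.

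Of 18 other genes of Toll-like signalling, 2 rose and 2 fell against LMPPs, and 5 were higher and 2 lower than in control cells. Tlr8 rose by 2.02 against LMPPs and was 2.15 above control cells. Ly86 (MD-1) and Cd180, which form a receptor complex related to that of Ly96 and Tlr4, fell by 2.28 and 1.38 from LMPPs and were 1.60 and 1.90 above control cells.

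**Figure D2:**
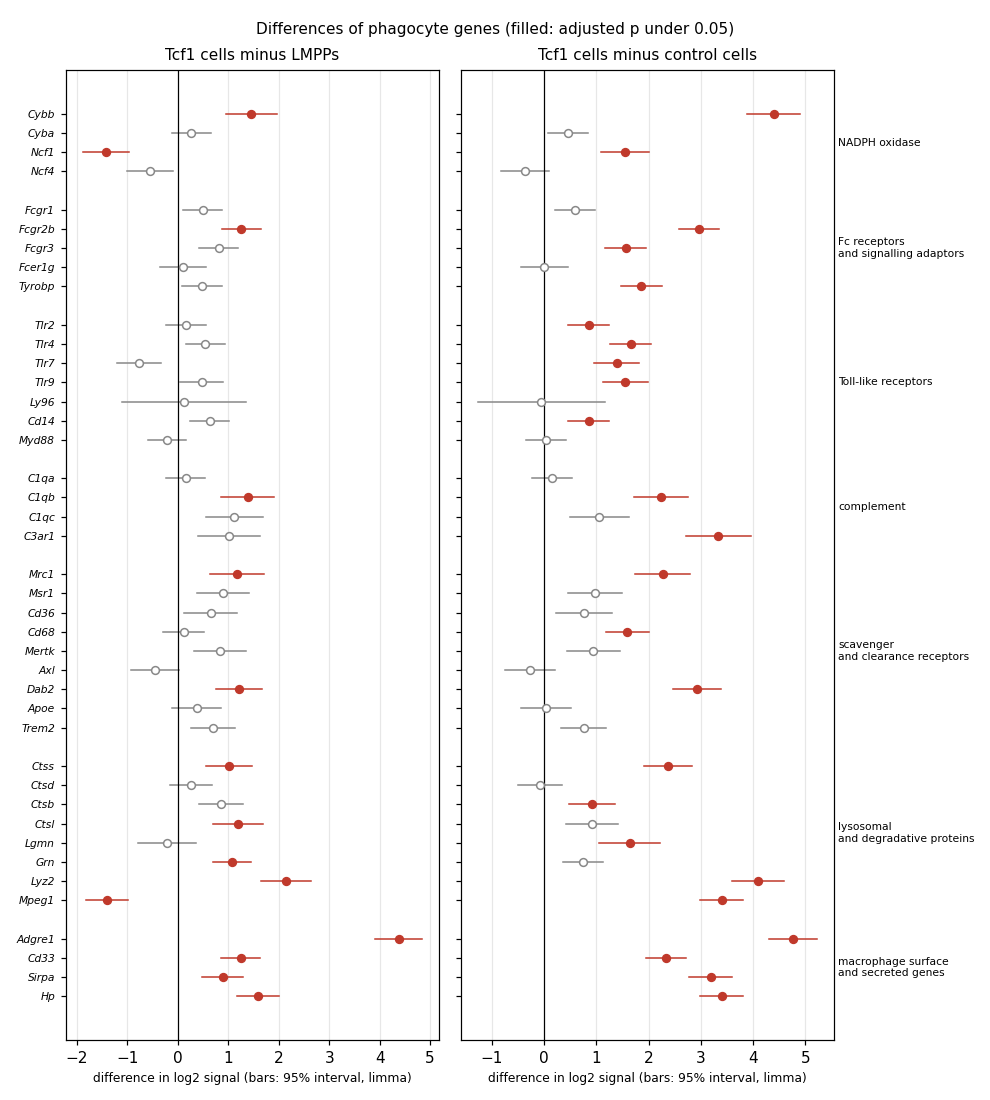
Difference in log2 signal of Tcf1 cells from LMPPs (left) and from control cells (right) for each of the 41 genes, with the 95% interval from limma as a bar. Filled red points passed the test, open grey points did not: 13 passed above and 2 below LMPPs, and 24 above control cells.

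Complement genes were read for the 3 chains of C1q, the molecule that starts the classical pathway, and for C3ar1, the receptor of the C3a fragment. C1qb read 7.44 in LMPPs, 8.60 and 9.05 in Tcf1 cells and 6.59 in control cells. It rose by 1.39 against LMPPs (SE 0.22, adjusted p = 0.0224, limma) and was 2.24 above control cells (adjusted p = 0.00287, limma). C1qc read 6.22 in LMPPs, 7.08 and 7.60 in Tcf1 cells and 6.28 in control cells, 1.12 above LMPPs and 1.06 above control cells, without passing (adjusted p = 0.0649 and 0.0625, limma). C1qa, which lies with them in 1 gene cluster, differed by 0.16 from either (95% interval -0.23 to 0.54 in both comparisons). The chains of C1q assemble in equal numbers. Their 3 differences were not tested against each other.

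C3ar1 read 7.94 in LMPPs, 8.64 and 9.26 in Tcf1 cells and 5.61 in control cells. Control cells lay 2.32 below LMPPs, and Tcf1 cells 3.34 above control cells, or 10.1-fold (adjusted p = 0.00104, limma). The difference of 1.01 from LMPPs did not pass (adjusted p = 0.111, limma). Of 12 other complement genes, Itgb2, the common integrin chain of complement receptors, rose by 1.24 against LMPPs, Cd93 fell by 1.06, and Cfp, properdin of the alternative pathway, was 2.86 above control cells and the only one of the 12 past that test.

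Of 9 scavenger and clearance genes, 2 rose against LMPPs and 3 were higher than in control cells. Mrc1, the mannose receptor, read 7.64 in LMPPs, 8.57 and 9.04 in Tcf1 cells and 6.54 in control cells. It rose by 1.17 (adjusted p = 0.0457, limma) and was 2.27 above control cells (adjusted p = 0.00289, limma). Dab2, an endocytic adaptor that binds clathrin and receptor tails, read 8.04 in LMPPs, 9.09 and 9.42 in Tcf1 cells and 6.33 in control cells. It rose by 1.22 and was 2.92 above control cells (adjusted p = 0.0234 and 0.000682, limma). A second Dab2 probe set lay between 4.40 and 4.48 on all arrays, and with the mean of both the difference from LMPPs was 0.63 and did not pass (adjusted p = 0.117, limma). Cd68, a glycoprotein of macrophage lysosomes and endosomes, read 10.29 in LMPPs, 10.32 and 10.49 in Tcf1 cells and 8.81 in control cells. Cd68 was thus 1.60 above control cells (adjusted p = 0.00396, limma), and its difference from LMPPs was 0.12 (95% interval -0.29 to 0.52).

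The receptors Msr1, Cd36, Mertk and Trem2, which take up modified lipoproteins and dying cells, shared 1 order. In each the LMPP and control arrays lay within 0.12 of each other and both Tcf1 arrays above them. The Tcf1 mean was 0.65 to 0.90 above LMPPs and 0.76 to 0.97 above control cells. None of these 4 passed over all genes in limma, and all 4 differed from control cells at an unadjusted p under 0.05. Axl, a receptor kinase related to Mertk, was not above the other arrays, with 7.66 and 8.01 in Tcf1 cells, 8.30 in LMPPs and 8.11 in control cells. Apoe, a lipid carrier secreted by macrophages, differed by 0.04 from control cells (95% interval -0.44 to 0.52).

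Of 19 other scavenger and clearance genes, 3 rose and 0 fell against LMPPs by limma (6 and 0 at an unadjusted p under 0.05), and 3 were higher and 1 lower than in control cells. Itgb5, an integrin chain that can bind dying cells through Mfge8, rose by 1.57 and was 2.74 above control cells. Lrp1, an endocytic receptor, rose by 1.39 and was 1.88 above control cells. Itgb3 rose by 1.14 against LMPPs and was 1.17 lower than in control cells.

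Of 8 lysosomal genes, 4 rose and 1 fell against LMPPs, and 5 were higher than in control cells. Lyz2, the lysozyme of macrophages and granulocytes, read 9.66 in LMPPs, 11.60 and 12.01 in Tcf1 cells and 7.71 in control cells. It rose by 2.14 (SE 0.21, adjusted p = 0.00341, limma) and was 17.1-fold above control cells, a difference of 4.09 (adjusted p = 0.000314, limma). Its paralog Lyz1 is close in sequence, and cross-hybridisation was not tested. Mpeg1, the pore-forming perforin-2 of phagosomes, was highest in LMPPs, at 10.43, with 8.93 and 9.12 in Tcf1 cells and 5.63 in control cells. Mpeg1 fell by 1.40 (adjusted p = 0.00863, limma) and still was 10.6-fold above control cells, a difference of 3.40 (adjusted p = 0.0003, limma).

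The cathepsins, the proteases of the lysosome, differed in which comparison they passed. Ctss, which trims the invariant chain of MHC class II, read 9.11 in LMPPs, 9.97 and 10.28 in Tcf1 cells and 7.75 in control cells, and passed in both (1.02 and 2.37). Ctsl read 8.70 in LMPPs, 9.69 and 10.09 in Tcf1 cells and 8.97 in control cells, and rose by 1.20 against LMPPs, with a difference of 0.92 from control cells (adjusted p = 0.0649, limma). Ctsb read 10.61, then 11.33 and 11.61, and 10.54, and passed against control cells by 0.93, with 0.86 against LMPPs (adjusted p = 0.0693, limma). A gene past 1 test and not the other is not shown to differ between them, and that was not tested. Ctsd, the aspartic protease, lay between 11.31 and 11.68 on all arrays.

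Lgmn, the asparaginyl endopeptidase that activates cathepsins, read 8.99 in LMPPs, 8.50 and 9.05 in Tcf1 cells and 7.14 in control cells, 1.64 above control cells (adjusted p = 0.0137, limma). Grn, progranulin, a secreted precursor that also enters the lysosome, read 10.60 in LMPPs, 11.65 and 11.70 in Tcf1 cells and 10.93 in control cells, and rose by 1.08 against LMPPs (adjusted p = 0.018, limma). Its difference of 0.75 from control cells did not pass (adjusted p = 0.0548, limma). Of 16 other lysosomal genes, 0 passed against LMPPs by limma (4 higher and 1 lower at an unadjusted p under 0.05) and 4 were higher than in control cells: the cathepsins Ctsh (1.86) and Ctsz (1.16), the hexosaminidase chain Hexa (1.33) and the cathepsin inhibitor Cst3 (1.04).

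All 4 macrophage surface and secreted genes passed in both comparisons. Adgre1, the gene of the macrophage antigen F4/80, read 6.89 in LMPPs, 11.10 and 11.43 in Tcf1 cells and 6.51 in control cells. Its difference was the largest of the 41 in both comparisons, 4.37 from LMPPs (20.7-fold, SE 0.19, adjusted p = 0.000222, limma) and 4.76 from control cells (27.1-fold, adjusted p = 0.000167, limma). LMPPs and control cells differed by 0.39 for this gene. Hp, haptoglobin, which binds free haemoglobin, read 8.02 in LMPPs, 9.51 and 9.71 in Tcf1 cells and 6.21 in control cells, with differences of 1.59 and 3.40.

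Sirpa, the inhibitory receptor for the signal CD47 on other cells, read 9.76 in LMPPs, 10.56 and 10.74 in Tcf1 cells and 7.46 in control cells, with differences of 0.89 (adjusted p = 0.0464, limma) and 3.19. Cd33, a lectin that binds sialic acid, read 10.28 in LMPPs, 11.49 and 11.55 in Tcf1 cells and 9.18 in control cells, with differences of 1.24 and 2.34. The Tcf1 replicates of these 4 genes lay within 0.33 of each other. Of 11 other macrophage genes, 0 passed against LMPPs by limma (4 higher and 1 lower at an unadjusted p under 0.05) and 4 were higher than in control cells: Ccl9 (2.78), Csf1r (1.82), the receptor of the macrophage growth factor CSF-1, Ccl6 (1.12) and Ccr2 (1.03). Csf1r read 9.20 in LMPPs, 9.15 and 9.54 in Tcf1 cells and 7.53 in control cells. Siglec1 and Cd163, markers of resident tissue macrophages, did not pass, and Cd163 lay between 5.72 and 5.96 on all arrays. Siglec1 was 0.52 above LMPPs and 0.51 above control cells (unadjusted p = 0.015 and 0.0161, limma).

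**Figure D3:**
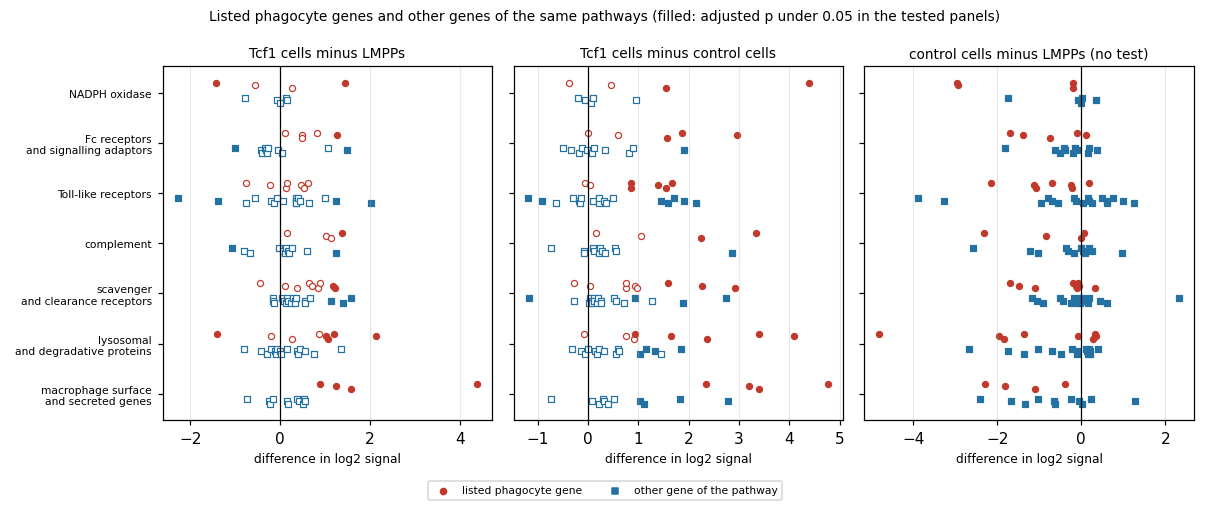
Difference in log2 signal for the 41 genes (red circles) and for other genes of the same pathways (blue squares), by role, in 3 comparisons. Filled symbols passed limma's test in the first and second panel, while the third has no test. Of 91 other pathway genes, 7 passed above and 4 below LMPPs, and 18 above and 3 below control cells.

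Over all roles, 7 of 91 other pathway genes rose and 4 fell against LMPPs, with a median of 0.14, and 18 were higher and 3 lower than in control cells, with a median of 0.23. The 41 named genes had medians of 0.65 and 1.39 in the same comparisons. Both lists were chosen with earlier results of these data known, so the gap between them is not a test.

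Control cells were set against LMPPs, 1 array against 1, without a test. Of the 41 genes, 18 read at least 2-fold lower in control cells (43.9%, beside 2.36% of all genes) and 0 at least 2-fold higher (3.17% of all genes). At a 4-fold minimum 6 were lower, and all genes were not counted at that minimum. Mpeg1 differed by the most, at -4.80 on the log2 scale (27.9-fold), then Ncf1 (-2.97), Cybb (-2.94), C3ar1 (-2.32), Sirpa (-2.30) and Tlr7 (-2.16). In all, 34 of 41 (82.9%) read lower in control cells, beside 52.7% of all genes, and the median was -0.69 against -0.01 over all genes. The 7 that did not were Fcer1g, Ly96, C1qc, Apoe, Ctsd, Ctsl and Grn, and their excess was at most 0.34. C1qa read 6.64 on both arrays and is counted among the 34. Both Tcf1 arrays lay above the control array for 35 of 41 genes, beside 38.6% of all genes, and above the LMPP array for 32 of 41, beside 35.8%.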

How the data were processed

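Per the labels' protocols, total RNA was amplified (Ambion WT Expression kit) and biotinylated (Affymetrix WT Terminal Labeling kit), and 4 arrays were read. The authors deposited log2 signal for each probe set, made with RMA and Partek 6.5 per the submitters' processing notes. The log base is taken from RMA and the range of the values, and parameters and genome build are not given in the sources used here. Signal over background was not judged. Of 35399 probe sets, 21789 had 1 gene symbol, 1621 several and 11989 none, and only the first kind was used. For 999 genes with several probe sets, the brightest on average was used.

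Group means over 19938 genes were fitted in limma 3.58.1 (R 4.3.3), with empirical Bayes moderation, Benjamini-Hochberg adjustment over all genes and an adjusted p under 0.05. The fit has 1 residual degree of freedom and a prior of 5.78, and was tested on simulated data, where the share of false calls exceeded the nominal level and many 2-fold changes were missed. The labels call the Tcf1 arrays biological replicates. Whether they came from separate animals is not stated, so their spread may not hold that between animals. The number of arrays limits the precision. Genes past a test, or at least 2-fold apart between control cells and LMPPs, are given with every array, and up to 3 passing genes of each other list by size. Others named were chosen after their values were seen. Members, lists and tests were chosen with earlier results of these data known. Alternatives were scaling, probe set choice, filters on dim genes, moderation, all probe sets, the fold minimum and leaving out 1 replicate.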

Additional observations from a re-analysis of the deposited data

How the results depend on the processing

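Against LMPPs, the 13 phagocyte genes that rose became 20 after median centring, 20 over genes above the 25th percentile of mean level and 22 with limma's trend and robust options, and were 14 to 17 under the other 3 alternatives with named genes (40 of 41 genes are above the 25th percentile and 33 above the median). With all probe sets tested together the counts were 0 higher and 0 lower against LMPPs (from 13 and 2) and 0 higher against control cells (from 24). That setting adds tests and changes the shared spread together, and the cause was not tested. Under the other alternatives the count above control cells ran from 25 to 33. Calls over all genes rose as well. Above control cells they went from 378 to between 412 and 667 (604 of 14952 genes above the 25th percentile, 498 of 9969 above the median). Above LMPPs they went from 349 to 607 after median centring, 593 of 14952 above the 25th percentile and 621 with trend and robust. Under the alternatives with 14 to 17 phagocyte genes they were 372 to 561. Leaving out 1 Tcf1 array, at least 2-fold higher genes numbered 9 to 16 against LMPPs, and 21 to 26 against control cells. At a 4-fold minimum, 6 in place of 18 genes were lower in control cells than in LMPPs. All genes were not counted at the 4-fold minimum or with 1 array left out. Differences near 0 from control cells turned sign for Fcer1g (-0.039), Myd88 (-0.002) and Apoe (-0.002) after median centring. The same held for Ly96 (0.079) after quantile normalization, and none of these passed. Without Tcf1 replicate 2, differences from LMPPs turned sign for Fcer1g (0.103 to -0.051) and Ly96 (0.123 to -0.609). Without replicate 1, that of Lgmn did (-0.211 to 0.064). None of these had passed against LMPPs. Sign changes from control cells with 1 array left out are not listed here. Over all genes, calls against LMPPs were 349 higher and 261 lower, or 57.2% higher, and 607 and 849, or 41.7%, after median centring. No paired analysis was possible because the LMPP and control groups have 1 array each, without a replicate number.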
